A study of Mus musculus with 2 samples.

Results

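The 10 genes described here were listed together as receptors, lectins and secreted proteins of macrophages settled in tissue. They are the lectins Mrc1, Cd209d, Cd209f and Cd209g, and the endocytic receptors Cd163, Folr2 and Lyve1. The others are the phosphatidylserine receptor Timd4 and the secreted proteins Retnla and Pla2g2d. Retnla was also frequent in sham cells with the monocyte genes Ly6c2 or Ccr2, as given below. The set was taken as a list of symbols, 10 of the 32285 gene identifiers measured, and all 10 were found and measured. Each was followed in single cells that held at least 1 transcript molecule of Csf1r, the receptor for the macrophage growth factor CSF1, and at least 1 of Cd68, a lysosomal glycoprotein of macrophages. Such cells are called gate cells below. A transcript molecule was counted as a unique molecular identifier (UMI), so that copies made by amplification count once.

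The tenotomy library came from plantaris muscles of male C57BL/6J mice of 12 weeks taken 4 days after tenotomy, the surgical cutting of a tendon, on that side. The sham library came from the other plantaris muscle of the same mice, operated on as sham. The muscles of 5 mice were pooled for each library, digested with collagenase, and sorted for living cells by Calcein AM staining and propidium iodide exclusion, so each condition is 1 library with no replicate. The labels do not name the tendon. Every difference below is between these libraries, and no test across samples was possible. Bracketed ranges are 95% intervals that cover counting error only.

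Skeletal muscle holds macrophages that live in the tissue for long periods, and injury or altered loading brings in blood monocytes that turn into macrophages of their own kind. Settled macrophages of connective tissue take up proteins, glycans and dying cells, and many of the genes in this set are used to recognise them. Mrc1, the mannose receptor, and the Cd209 lectins bind sugars on glycoproteins and microbes. Cd163 takes up haemoglobin bound to haptoglobin, Folr2 binds folate, Lyve1 binds hyaluronan and is also a gene of lymphatic endothelium, and Timd4 tethers dying cells by their phosphatidylserine. Retnla is a secreted resistin-like protein induced by interleukin-4 signalling in mouse macrophages, and Pla2g2d is a secreted phospholipase A2.

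On the mm10 assembly, Cd209d, Cd209f and Cd209g lie in a family of 7 Cd209 genes on chromosome 8 that spans 394 kb, between positions 3743397 and 4137707. Their reads could be confused if their 3′ ends were alike, because the libraries count 3′ ends. For each of them, the last 500 bases of the longest transcript were cut into 451 words of 50 bases. None of these words occurred in the transcripts of the other 6 Cd209 genes. The ends of their shorter transcripts were not checked. The promoters of these lectins, with those of Timd4 and Retnla, are shown because the first group is a family whose members were found in the same cells and the second pair holds a Maf core site. Each is 300 bases around the gene's start, 5′ to 3′ on the gene's strand, from RefSeq on GRCm38.p6. Capitals mark GAGGAA, the core bound by PU.1, or TGCTGAC, a Maf core site, each searched on both strands so that the complements TTCCTC and GTCAGCA count as well. The regions are chr8:3878450-3878749, minus strand, for Cd209d, chr8:4105715-4106014, minus strand, for Cd209f, chr8:4134486-4134785, plus strand, for Cd209g, chr11:46810549-46810848, plus strand, for Timd4, and chr16:48842359-48842658, plus strand, for Retnla.
Cd209d: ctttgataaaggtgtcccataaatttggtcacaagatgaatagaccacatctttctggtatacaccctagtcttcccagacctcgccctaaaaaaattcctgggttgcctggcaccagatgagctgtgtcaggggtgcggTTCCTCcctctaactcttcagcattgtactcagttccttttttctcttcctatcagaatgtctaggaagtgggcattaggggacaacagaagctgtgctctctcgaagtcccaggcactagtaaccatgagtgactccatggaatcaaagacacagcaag
Cd209f: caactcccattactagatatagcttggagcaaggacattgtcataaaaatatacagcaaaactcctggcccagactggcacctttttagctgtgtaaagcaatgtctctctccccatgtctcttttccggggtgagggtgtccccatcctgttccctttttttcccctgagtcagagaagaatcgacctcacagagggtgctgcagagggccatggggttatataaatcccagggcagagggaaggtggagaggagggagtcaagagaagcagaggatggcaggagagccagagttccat
Cd209g: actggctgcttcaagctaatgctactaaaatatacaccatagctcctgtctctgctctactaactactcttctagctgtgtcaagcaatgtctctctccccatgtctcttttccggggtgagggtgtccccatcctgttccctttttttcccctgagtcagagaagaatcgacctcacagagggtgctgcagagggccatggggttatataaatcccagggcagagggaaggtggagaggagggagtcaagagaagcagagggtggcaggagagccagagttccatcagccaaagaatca
Timd4: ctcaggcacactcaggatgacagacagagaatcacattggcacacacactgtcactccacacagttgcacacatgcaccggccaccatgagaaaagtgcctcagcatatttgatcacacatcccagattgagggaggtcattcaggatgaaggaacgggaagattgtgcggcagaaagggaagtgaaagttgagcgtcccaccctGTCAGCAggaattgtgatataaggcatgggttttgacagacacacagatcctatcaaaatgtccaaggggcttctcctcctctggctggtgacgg
Retnla: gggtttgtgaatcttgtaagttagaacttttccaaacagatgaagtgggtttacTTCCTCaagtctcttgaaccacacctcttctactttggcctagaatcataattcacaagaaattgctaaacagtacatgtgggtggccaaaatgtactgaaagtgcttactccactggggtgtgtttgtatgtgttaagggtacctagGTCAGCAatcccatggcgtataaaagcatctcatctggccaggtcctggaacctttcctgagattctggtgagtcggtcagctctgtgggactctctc

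The promoters of Cd209f and Cd209g were identical at 260 of 320 aligned positions (81.25%), while that of Cd209d matched them at 50.4% and 50.7% of aligned positions. RefSeq promoters were found for 9 of the 10 genes, with 2 for Folr2, which gave 10 promoters. GAGGAA was present in 4 of these 10, those of Cd209d, Mrc1, Retnla and Pla2g2d, and in 28.3% of 32851 mouse promoters of the same length. TGCTGAC was present in 2 of the 10, at -48 from the start of Retnla and at -45 from the start of Timd4, and in 4.67% of all promoters. These matches describe letters in a window and say nothing of binding.

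Gate cells were 8.0 times (7.19 to 8.91) as frequent in the tenotomy library. They numbered 3899 of 10917 cells kept after filtering (35.7%, 34.8 to 36.6) with tenotomy and 337 of 7548 (4.46%, 4.01 to 4.96) with sham. In all, 88.8% of tenotomy and 88.7% of sham gate cells fell in clusters named monocyte/macrophage-like from fixed marker genes, but this class holds different clusters in each library, as given further on. A further 4.59% and 2.97% fell in dendritic-like clusters. In the monocyte/macrophage-like class, Csf1r stood at 646 CPM with tenotomy and 1074 CPM with sham and Cd68 at 606 and 461 CPM, and the gate took 81.9% and 68.6% of the class. Ly6c2 or Ccr2, genes of recently recruited monocytes, had a UMI in 44.0% of tenotomy and 16.8% of sham gate cells at 2000 UMIs per cell, and in 67.7% and 24.6% at full depth. At 2000 UMIs, Ccr2 was found in 40.5% and 15.8% and Ly6c2 in 8.53% and 3.48%. In summed CPM Ccr2 stood at 304 with tenotomy and 180 with sham, whereas Ly6c2 stood at 98.4 and 130. Flt3 or Zbtb46, genes of dendritic cells, had one in 4.00% and 6.53% at full depth. Median depth was 6826 UMIs per tenotomy gate cell and 7614 per sham gate cell. Detection was therefore compared after thinning each cell to 2000 UMIs, which left out 53 tenotomy and 21 sham gate cells that were shallower.

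In tenotomy gate cells, 9 of the 10 genes stood at least 2-fold below sham, and Mrc1 was lower by less than 2-fold. None was higher by 2-fold or more. This count held both for UMIs summed over gate cells and scaled by the total UMIs of the same cells to CPM and for the share of gate cells with a UMI. Over all measured genes, 12.2% of 12726 were at least 2-fold lower in summed CPM and 7.80% higher, and 20.1% of 11626 were lower and 7.97% higher in the share of cells. None of the 10 was 2-fold lower in UMIs per positive cell, as were 0.525% of all measured genes. The median log2 fold of the 10 genes was -3.71 in CPM, against -0.03 over all measured genes. In the share of positive cells it was -3.69 against -0.12, and in UMIs per positive cell -0.44 against 0.00.

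**Figure D1:**
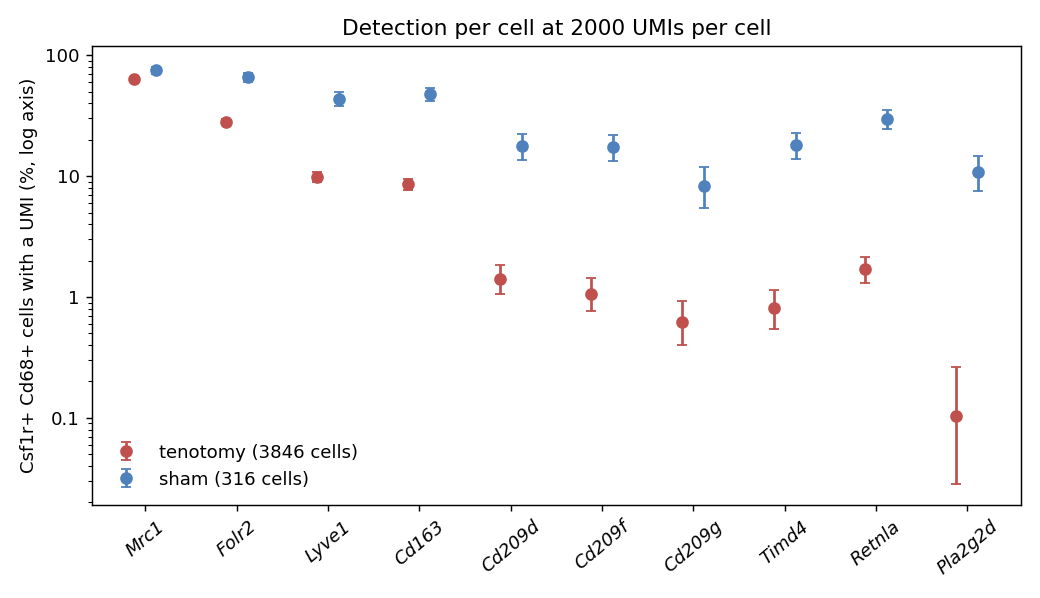
Share of gate cells (at least 1 UMI of Csf1r and 1 of Cd68) with a UMI of each gene after thinning to 2000 UMIs per cell, in percent on a log axis, for 3846 tenotomy cells and 316 sham cells; points are shares and bars exact 95% binomial intervals. Mrc1 lies closest together at 63.3% and 75.6%, and Pla2g2d farthest apart at 0.104% and 10.8%.

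Among the lectins, Mrc1 stood close to its sham level. Mrc1 summed to 812 CPM (802 to 822) in tenotomy gate cells and 1114 CPM (1076 to 1152) in sham gate cells, 1.37 times lower (1.32 to 1.42). It had a UMI in 2436 of 3846 tenotomy cells (63.3%) and 239 of 316 sham cells (75.6%). The mannose receptor was thus detected in most gate cells of each library, and its direction depended on the gate. With cells holding a UMI of either Csf1r or Cd68 in place of both, its log2 difference was 0.02 in CPM and 0.47 in share, against -0.46 and -0.26 here.

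The Cd209 lectins were detected in about as many tenotomy as sham gate cells, although the tenotomy gate held far more cells. Cd209d had 10.9 CPM with tenotomy and 119 CPM with sham, 10.9 times lower (9.40 to 12.7). It was positive in 54 tenotomy cells (1.40%, 1.06 to 1.83) and 56 sham cells (17.7%, 13.7 to 22.4), a share 12.6 times lower (8.84 to 18.0). Cd209f had 9.17 CPM and was positive in 41 tenotomy cells (1.07%), against 161 CPM and 55 sham cells (17.4%), a share 16.3 times lower (11.1 to 24.1). Cd209g had 4.22 CPM and was positive in 24 tenotomy cells (0.624%), against 66.6 CPM and 26 sham cells (8.23%), a share 13.2 times lower (7.66 to 22.7). All 3 intervals of the shares were apart between the libraries.

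The endocytic receptors were lower by smaller factors and were still found in many tenotomy cells. Cd163, the haemoglobin scavenger receptor, had 73.1 CPM with tenotomy and 472 CPM with sham, 6.46 times lower (6.04 to 6.90). Its share was 8.53% (328 cells) with tenotomy and 47.5% (150 cells) with sham, 5.57 times lower (4.76 to 6.50). Lyve1, the hyaluronan receptor, had 101 CPM in tenotomy and 442 CPM in sham gate cells, with shares of 9.91% (381 cells) and 43.7% (138 cells), 4.41 times lower (3.77 to 5.16). Folr2, the folate receptor, had 237 CPM in tenotomy and 756 CPM in sham gate cells, with shares of 28.2% (1085 cells) and 66.1% (209 cells), 2.34 times lower (2.13 to 2.57).

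Timd4, the receptor for phosphatidylserine on dying cells, had 4.25 CPM in tenotomy and 93.2 CPM in sham gate cells, 21.9 times lower (17.8 to 27.1). It was positive in 31 tenotomy cells (0.806%, 0.548 to 1.14) and 57 sham cells (18.0%, 13.96 to 22.7). The secreted proteins were among the most distant genes of the set. Retnla had 111 CPM with tenotomy and 3251 CPM with sham, 29.4 times lower (28.3 to 30.6), and was positive in 65 tenotomy cells (1.69%, 1.31 to 2.15) and 94 sham cells (29.7%, 24.8 to 35.1). Pla2g2d, the phospholipase, had 16 UMIs (0.511 CPM) in tenotomy and 137 UMIs (45.0 CPM) in sham gate cells, 87.9 times lower (52.2 to 158). Only 4 tenotomy cells (0.104%) were positive for Pla2g2d at the thinned depth, against 34 sham cells (10.8%).

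Free RNA can give a UMI to a cell that does not make the transcript, so the shares were set beside classes that should lack these genes. The shares of the 10 genes ran to at most 2.39% in tenotomy and 1.38% in sham muscle stem cell-like cells, and to at most 2.23% and 2.61% in blood endothelial-like cells. Median depths were 13529 and 5992.5 UMIs in the first class and 3126 and 3521 in the second. In B cell-like cells, with median depths of 1819.5 and 3459.5 UMIs, Mrc1 had the highest tenotomy share, 11.8% of 110 cells, followed by Folr2 at 6.36%, and Retnla the highest sham share, 3.92% of 51 cells. In the tenotomy library, the share of Retnla was 1.69% in gate cells and 1.01% (0.487 to 1.86) in blood endothelial-like cells. These intervals overlapped, so the share alone is not read as expression. At full depth, however, 44 of 3899 tenotomy gate cells held at least 5 Retnla UMIs, and the highest held 530. Retnla had 19 UMIs in all over 1271 tenotomy blood endothelial-like cells. The tenotomy shares of Cd209d, Cd209f, Cd209g and Timd4 in gate cells, 1.40%, 1.07%, 0.624% and 0.806%, stood beside 0.507%, 0.203%, 0.304% and 0.304% in blood endothelial-like cells. These shares had overlapping intervals as well, apart from Cd209f.

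The mean UMIs per gate cell is the share of positive cells times the UMIs per positive cell, so each log2 difference divides into these terms. The share term carried most of it in every gene of the set but Mrc1. For Cd209d the share term was -3.66 and the level term 0.14, for Timd4 -4.48 and -0.36, and for Pla2g2d -6.69 and -0.31. For Cd209f they were -4.03 and -0.48, and for Cd209g -3.72 and -0.72. For Lyve1 they were -2.14 and -0.37, for Cd163 -2.48 and -0.54, and for Retnla -4.14 and -0.94. Folr2 had a larger part in the level, with -1.23 in the share and -0.88 in the level. Only Mrc1 had more in the level, -0.41, than in the share, -0.26.

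**Figure D2:**
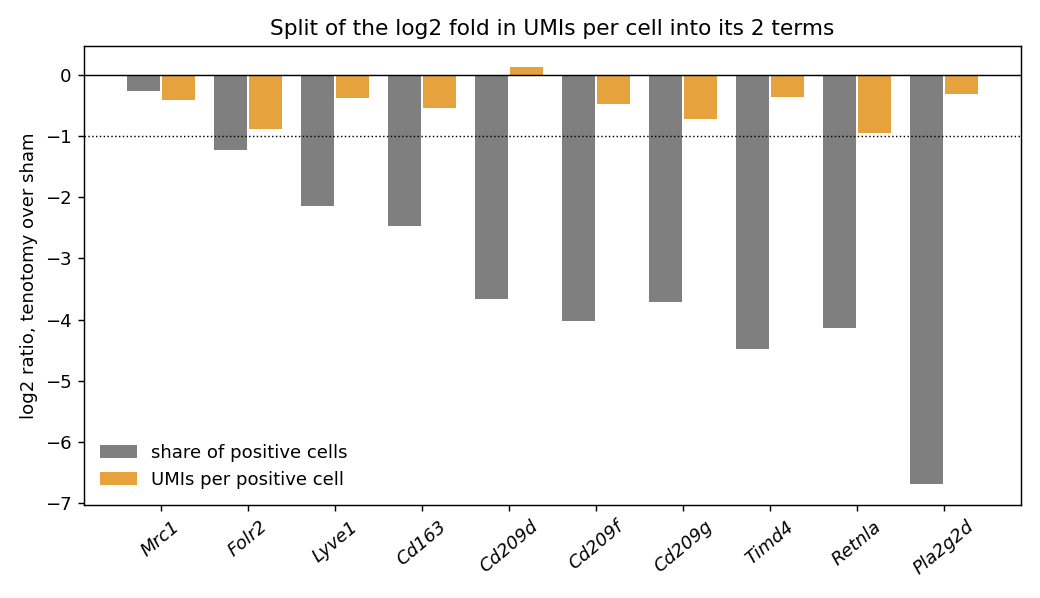
Log2 difference of tenotomy over sham in the share of gate cells with a UMI and in the UMIs per positive cell, for each of the 10 genes at 2000 UMIs per cell. The share bars reach -6.69 for Pla2g2d, whereas no level bar passes -0.94.

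Positive tenotomy cells held somewhat fewer UMIs of most of these genes than positive sham cells. Folr2 averaged 1.71 UMIs per positive tenotomy cell and 3.14 per positive sham cell, and 43.8% (40.8 to 46.8) and 74.6% (68.2 to 80.4) of positive cells held at least 2 UMIs. Mrc1 averaged 2.65 and 3.52 UMIs, Cd163 1.67 and 2.43, and Lyve1 1.95 and 2.52. The share of positive cells with at least 2 UMIs was 41.5% (36.1 to 47.0) in tenotomy and 63.3% (55.1 to 71.0) in sham for Cd163, and 50.1% (45.0 to 55.3) and 70.3% (61.9 to 77.8) for Lyve1. Retnla averaged 8.83 UMIs per positive tenotomy cell and 17.0 per positive sham cell. Without thinning, the level of Folr2 and Retnla passed 2-fold, at -1.22 and -1.74 on the log2 scale. Cd209d was alike on this measure, with 33.3% (21.1 to 47.5) and 32.1% (20.3 to 46.0) of positive cells holding at least 2 UMIs.

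A share of cells with a UMI also takes in cells whose level drops below detection, so the share term is not by itself a count of lost cells. Both extremes were calculated from the sham cells and the observed difference in mean. The first was an even cut of the UMIs of every cell, and the other a loss of positive cells with no change in their level. Both take tenotomy gate cells to be sham gate cells that changed. They leave out a change in the kinds of cells: cluster 1, described below, held 1624 tenotomy cells and no sham cell. Nearness to an extreme is therefore not read as a change within cells. For Lyve1, an even cut would leave 15.8% of cells positive with 1.22 UMIs each, and a loss of cells 7.65% with 2.52 UMIs. Tenotomy had 9.91% with 1.95 UMIs, between the extremes. Cd163 lay between them too, with 8.53% positive and 1.67 UMIs each in tenotomy, where an even cut would give 12.3% with 1.16 UMIs and a loss of cells 5.87% with 2.43 UMIs. Folr2, at 28.2% with 1.71 UMIs in tenotomy, lay nearer the even cut (33.6% with 1.43 UMIs) than the loss of cells (15.3% with 3.14 UMIs).

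For Mrc1 the tenotomy cells also lay near an even cut, which would leave 66.9% positive and 67.1% of these with at least 2 UMIs, beside 63.3% and 64.8% observed. Cd209f lay between the extremes, with 1.07% positive and 1.85 UMIs each in tenotomy, an even cut giving 1.84% with 1.08 UMIs and a loss of cells 0.765% with 2.58 UMIs. Cd209d had 1.40% positive with 1.65 UMIs, nearer the loss of cells (1.54% with 1.5 UMIs) than the even cut (2.22% with 1.04 UMIs). At full depth, however, the tenotomy gate held 341 Cd209d UMIs and the whole monocyte/macrophage-like class 229. Some Cd209d in the gate thus lay outside that class, and the gate held 179 dendritic-like tenotomy cells. Timd4, with 1.06 UMIs per positive tenotomy cell, and Pla2g2d, with 1.0, were too near 1 UMI to be read in this way. For Timd4 an even cut would leave 0.848% of cells positive, beside 0.806% observed, so that fewer positive cells and less RNA per cell cannot be told apart. The tenotomy shares of Cd209d, Timd4 and Retnla had intervals that overlapped the background, which limits this reading for them.

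Against all kept cells with at least 2000 UMIs, 9332 with tenotomy and 6507 with sham, the order turned for some genes, because gate cells were so much more frequent with tenotomy. Positive gate cells made up 7.11 times (6.25 to 8.09) as large a share of these tenotomy cells for Mrc1, 3.62 times (3.13 to 4.18) for Folr2, 1.93 times (1.59 to 2.33) for Lyve1 and 1.52 times (1.26 to 1.84) for Cd163. For Pla2g2d the ratio was 0.0820 (0.0291 to 0.231), for Timd4 0.379 (0.245 to 0.587), for Retnla 0.482 (0.352 to 0.660), for Cd209f 0.520 (0.347 to 0.778) and for Cd209d 0.672 (0.463 to 0.976). The ratio for Cd209g, 0.644 (0.370 to 1.12), was within counting error of 1. Past 2-fold, 2 of the 10 genes were higher and 3 lower on this base, where 93.6% of all measured genes were higher and 0.533% lower.

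Fewer of the 10 genes were found together in a tenotomy cell. The median number of them detected per gate cell was 1 with tenotomy and 3 with sham. At least 3 were found in 11.1% (10.1 to 12.1) of tenotomy and 65.2% (59.7 to 70.4) of sham gate cells. At least 5 were found in 1.04% (0.744 to 1.41) and 26.6% (21.8 to 31.8). No gate cell of either library held all 10.

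**Figure D3:**
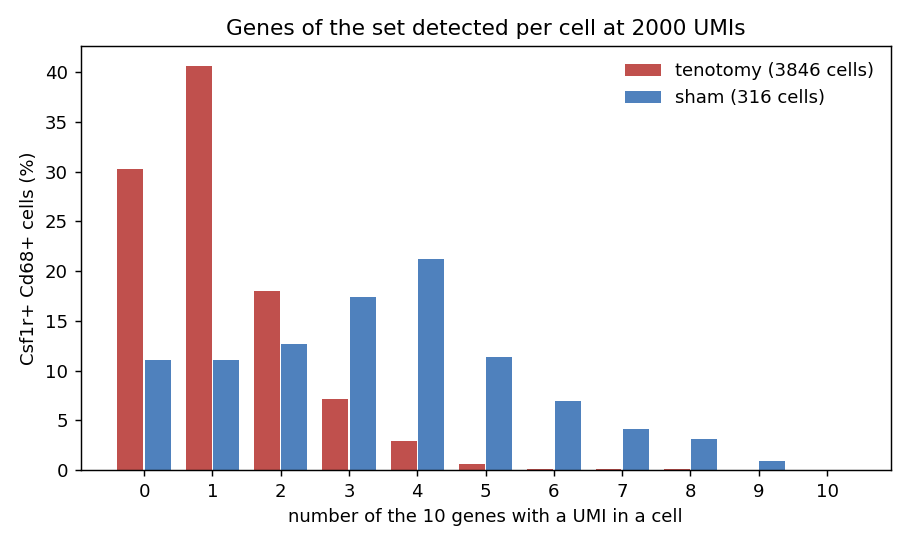
Percent of gate cells, on a linear axis, by the number of the 10 genes with a UMI at 2000 UMIs per cell, for 3846 tenotomy and 316 sham cells. Tenotomy cells peak at 1 gene (40.6%) and sham cells at 4 genes (21.2%).

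Within the set, the Cd209 lectins went together, and so did the endocytic receptors. Likeness was measured by the phi coefficient of detection over gate cells, with 3918 genes compared and the lower of the 2 libraries taken. It is a description of cells that share libraries and depth. The genes most like Cd209d were Cd209g (phi 0.30 in tenotomy and 0.31 in sham cells), Cd209f (0.27 and 0.38) and Cd209a (0.20 and 0.25). The gene most like Cd209f was Cd209g, at 0.31 and 0.47. Among Cd209g-positive cells, 41.7% of tenotomy and 76.9% of sham cells also held Cd209f.

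Lyve1 and Folr2 were each most like Cbr2, a carbonyl reductase, with phi 0.38 in tenotomy and 0.39 in sham for Lyve1 and 0.38 and 0.43 for Folr2. They were next most like each other (0.36 and 0.45), and Gas6, a ligand of receptors that clear dying cells, came after that for both. Cd163 was most like Lyve1 (0.31 and 0.31), then Folr2 and Cbr2. Mrc1 was most like the complement gene C1qa (0.31 and 0.61), then Selenop and Pf4. Timd4 was most like Cd209f (0.22 and 0.24), then Lyve1 and Fcna, a ficolin that was also the third gene for Cd209g. Pla2g2d had too few positive tenotomy cells to be compared.

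For Retnla, the gene most alike was Lyz1, a lysozyme, at phi 0.16 in tenotomy and 0.42 in sham cells, before Cd209f and Cd209d. In sham gate cells its phi was -0.08 with Mrc1, -0.08 with Cd163, -0.07 with Lyve1 and -0.05 with Folr2, while in tenotomy gate cells it was 0.05, 0.03, 0.10 and 0.05. Its UMIs were also held by few cells. The 10 cells with the most Retnla held 73.3% of 3457 Retnla UMIs in tenotomy and 53.8% of 9907 in sham gate cells, and the highest cell held 530 and 1026 UMIs. For Mrc1 the top 10 cells held 2.29% and 11.6%.

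The gate holds macrophages of different kinds, so the same shares were taken within cells grouped by complement and monocyte genes. Ly6c2 and Ccr2 were read at the thinned depth, and the groups were not matched for kind of cell. At full depth, gate cells with no UMI of Ly6c2 or Ccr2 numbered 1230 with tenotomy and 233 with sham. Some cells counted as lacking these genes below therefore held them, more so with tenotomy. Cells were not left out by cluster, and cluster 1, described below, held 1624 tenotomy cells and no sham cell. Cells with at least 3 UMIs over the complement genes C1qa, C1qb and C1qc and no UMI of Ly6c2 or Ccr2 made up 44.9% (1727 cells) of tenotomy and 75.0% (237 cells) of sham gate cells. Within them, 9 of the 10 genes were again at least 2-fold lower in share and none higher, beside 19.0% lower and 19.8% higher among 12606 measured genes. Cd209d was positive in 1.80% of these tenotomy and 19.8% of these sham cells, Timd4 in 1.62% and 22.8%, Lyve1 in 13.7% and 55.3%, Cd163 in 11.5% and 58.6%, and Folr2 in 35.1% and 83.1%. Mrc1 was positive in 71.5% and 90.7%. The factors ran from 1.27 for Mrc1 to 58.3 (4 of 1727 and 32 of 237 cells) for Pla2g2d, and lay at 13.4 for Retnla and 14.1 for Timd4.

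In gate cells with C1q transcripts and with Ly6c2 or Ccr2, 1228 tenotomy and 25 sham cells, 8 of the 10 genes were at least 2-fold lower and none higher. Over 12295 measured genes, 16.0% were lower and 51.8% higher there, where 1 sham cell is 4% of its group. Folr2 was positive in 33.7% (31.1 to 36.4) and 48.0% (27.8 to 68.7), and Mrc1 in 72.6% (70.0 to 75.0) and 64.0% (42.5 to 82.0), with overlapping intervals. Retnla was positive in 2.28% of these tenotomy cells and 72.0% (18 of 25, 50.6 to 87.9) of these sham cells. It was also the gene of the set most often found in sham gate cells low in C1q: with Ly6c2 or Ccr2, 0.647% (3 of 464) with tenotomy and 39.3% (11 of 28) with sham, and without them 0.937% (4 of 427) and 38.5% (10 of 26). Cd209f, Cd209g, Lyve1, Folr2 and Pla2g2d had no positive cell among the sham cells low in C1q.

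Cells were also grouped by clustering without the 10 genes, and the gene set separated the clusters of macrophages. Cluster 28, led by Ccl24, Mgl2, Clec10a and Fcna, held 78 tenotomy cells (0.714% of kept cells, 0.565 to 0.891) and 354 sham cells (4.69%, 4.22 to 5.19). Cluster 0, led by Cbr2, Ccl8 and F13a1, held 989 tenotomy (9.06%) and 37 sham cells (0.490%). Cluster 1, led by Gpnmb and Spp1, held 1624 tenotomy cells (14.9%) and no sham cell, and cluster 11, led by Ms4a4c, Plac8 and Ly6c2, held 1349 (12.4%) and 39 (0.517%). Cluster numbers are labels of these groups, which were all named monocyte/macrophage-like.

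Within cluster 28, 8 of the 10 genes had shares within 2-fold of each other in the libraries, 2 were lower with tenotomy and none was higher. Among 11700 measured genes, 29.3% were lower and 15.6% higher in this cluster. Over 74 tenotomy and 275 sham cells at 2000 UMIs, Cd209d was positive in 24.3% and 21.8%, Cd209f in 25.7% and 29.1%, Cd209g in 18.9% and 13.5%, and Timd4 in 20.3% and 25.5%. Cd163 was positive in 58.1% of tenotomy and 62.2% of sham cells, and Folr2 in 87.8% and 84.0%. The interval of the ratio held 1 for these 6 genes, and with 74 cells it was wide, from 0.704 to 1.77 for Cd209d. Lyve1 was higher in the tenotomy cells, at 77.0% and 54.9%, a ratio of 1.40 (1.19 to 1.65), and Mrc1 at 97.3% and 88.4%, a ratio of 1.10 (1.04 to 1.17).

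The secreted proteins differed within cluster 28 as well. Retnla was positive in 12.2% (9 of 74) of tenotomy and 29.8% (82 of 275) of sham cells, 2.45 times lower (1.29 to 4.64), with 283 and 1344 CPM. Pla2g2d had 2 UMIs (4.07 CPM) in the 78 tenotomy cells and 175 UMIs (91.3 CPM) in the 354 sham cells. At 2000 UMIs per cell it was positive in 0 of 74 tenotomy cells, which at that depth allows a share of up to 4.05%, and in 14.2% (39 of 275) of sham cells. The grouping rests on other genes of the same cells, so the alikeness of the receptors within it is a description and not a test.

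**Figure D4:**
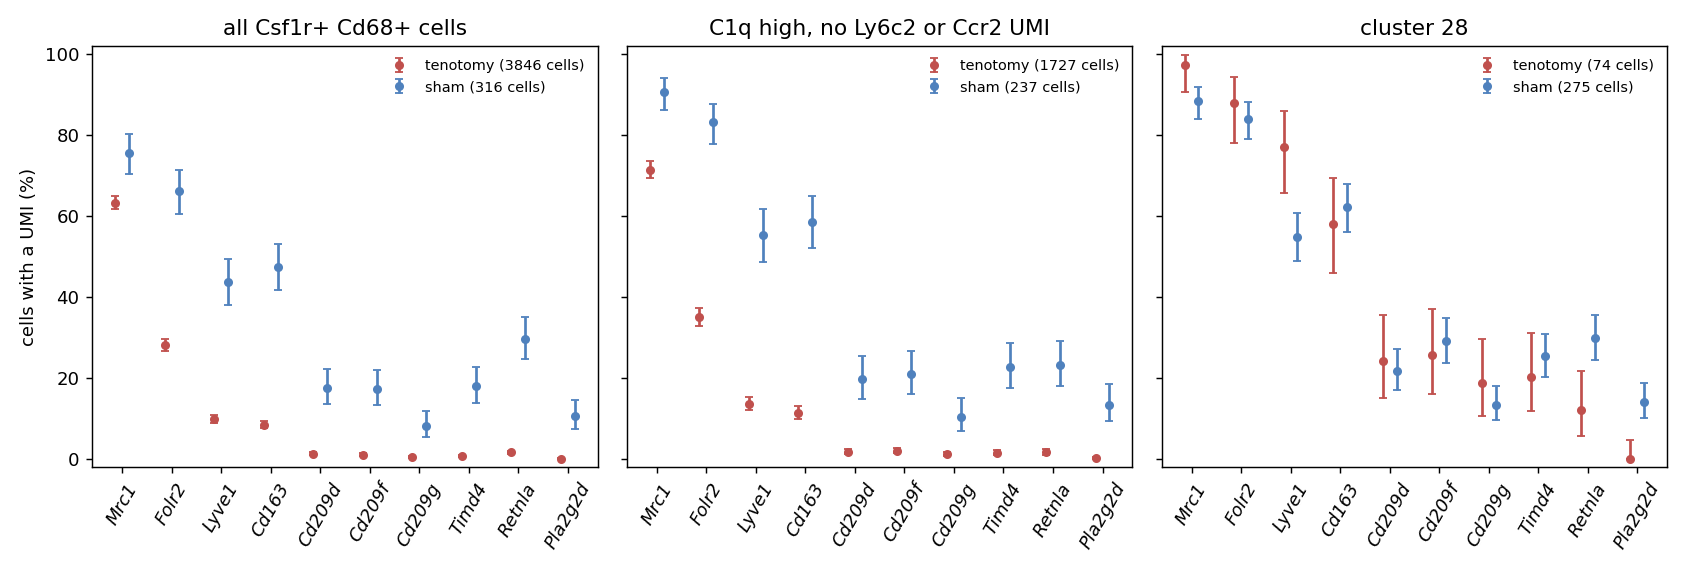
Share of cells with a UMI of each gene at 2000 UMIs per cell, in percent, for all gate cells, for gate cells with at least 3 C1q UMIs and no Ly6c2 or Ccr2 UMI, and for cells of cluster 28, with tenotomy left of sham and exact 95% binomial intervals. In cluster 28 the points of Cd209d lie at 24.3% and 21.8%, in contrast to 1.40% and 17.7% over all gate cells.

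Cluster 0 held 267 of 445 Lyve1-positive, 219 of 374 Cd163-positive and 553 of 1278 Folr2-positive tenotomy cells. Cluster 28 held 57, 43 and 65 of them, and cluster 1 held 15, 37 and 359. In cluster 0, Lyve1 was positive in 28.3% of tenotomy and 32.4% (11 of 34) of sham cells, Folr2 in 58.6% and 55.9%, and Mrc1 in 87.6% and 79.4%, and the interval of each ratio held 1. Cd163, at 23.2% and 32.4%, also had a ratio whose interval held 1 (0.718, 0.436 to 1.18), although its summed level was 214 CPM in tenotomy and 420 CPM in sham cells.

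The other genes of the set were rare in tenotomy cells of cluster 0. Cd209d was positive in 0.742% of its tenotomy cells and 11.8% (4 of 34) of its sham cells, Timd4 in 0.848% and 8.82% (3 of 34), and Retnla in 2.97% and 26.5% (9 of 34). Cd209f was positive in 1.27% of tenotomy cells and 1 of 34 sham cells, and Cd209g in 0.636% and 1 of 34, and the interval of each ratio held 1 (0.433, 0.0579 to 3.23, and 0.216, 0.0268 to 1.75). In cluster 1, which had no sham cells, Lyve1 was positive in 0.938% of tenotomy cells and Retnla in 0.188%, and Timd4 in none at this depth. In cluster 11, Retnla summed to 269 CPM in tenotomy and 7264 CPM in sham cells, whereas Timd4 was not detected at the thinned depth in either library.

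Outside macrophage-like cells, a few of these genes had other homes. In the dendritic-like class, Cd209d had 287 UMIs (56.3 CPM) over 655 tenotomy cells and 77 UMIs (184 CPM) over 25 sham cells, while the tenotomy monocyte/macrophage-like class held 229 Cd209d UMIs (7.99 CPM) over 4225 cells. Of the tenotomy cells positive for Cd209d at the thinned depth, 54 lay within the gate and 58 outside it, against 56 and 29 with sham. Cd209f had 1 UMI and Cd209g 3 UMIs in the tenotomy dendritic-like class. In the sham dendritic-like class, Timd4 was positive in 6 and Cd163 in 5 of 25 cells. Cluster 10, led by Ccr9 and Siglech, held Cd209d at 217 CPM over 22 tenotomy cells.

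Lyve1 was also found in an unnamed cluster led by Ccl21a, Selp and Mmrn1, genes of lymphatic or venous endothelium, at 558 CPM over 87 tenotomy cells and 1087 CPM over 69 sham cells. Retnla reached 14796 CPM over 39 sham cells of another unnamed cluster, led by Lyz1, Clec4b1 and Ear2, against 8.20 CPM over 54 tenotomy cells. At 2000 UMIs per cell Retnla was positive in 18 of 20 sham cells and 1 of 52 tenotomy cells of this cluster. These cells were unlike between the libraries. Median depth was 2008 UMIs in sham and 7999.5 in tenotomy cells, and Csf1r had a UMI at full depth in 25.6% and 85.2%. In contrast, Pla2g2d had 14 of its tenotomy UMIs and 181 of its sham UMIs in the monocyte/macrophage-like class, at 0.488 and 62.1 CPM.

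**Figure D5:**
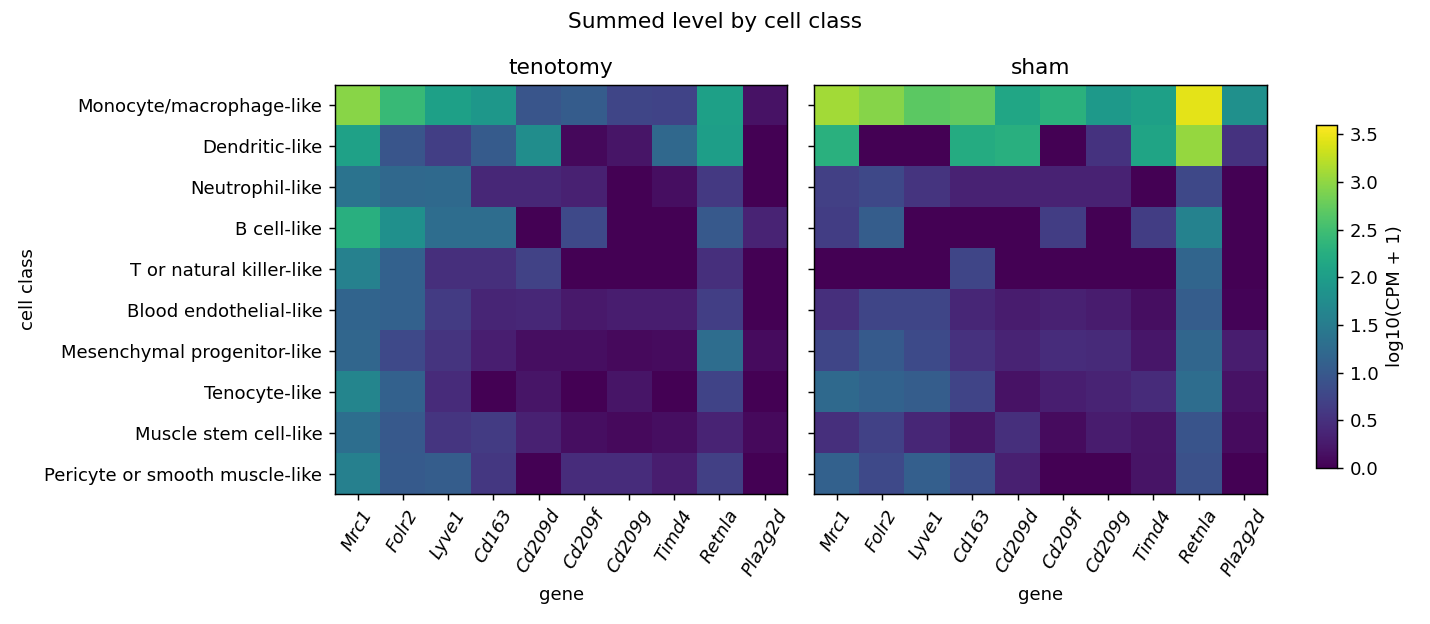
Level of each of the 10 genes in each cell class as log10 of summed CPM plus 1, with the tenotomy library in the left panel and the sham library in the right panel. The monocyte/macrophage-like row holds Mrc1 at 910 CPM with tenotomy and 1257 CPM with sham, and Retnla at 110 and 2833 CPM.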

How the data were processed

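The authors deposited raw counts, UMIs per gene and cell barcode, for 1 tenotomy and 1 sham library. Per the submitters' processing notes, Cell Ranger 4.0.0 and mm10 were used. The tenotomy file held 94556283 UMIs in 11950 barcodes and the sham file 47781353 in 8463. Symbols were matched for 32158 of 32285 identifiers. Cells with at least 300 genes, 500 UMIs and at most 10% mitochondrial UMIs were kept. Scrublet scores above 0.212 removed 320 tenotomy and 190 sham cells as doublets, and 10917 and 7548 cells remained, with medians of 5859 and 4851 UMIs. This threshold came from the tenotomy library, because the sham library's own threshold called 1 cell. The libraries shared 33 barcodes, 29 of them among kept cells.

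Leiden clustering (scanpy 1.11.5, resolution 1, 30 components, 15 neighbours, 2000 variable genes per library) left out the 10 genes. Names such as macrophage-like were assigned here from marker lists, not by the authors. They needed a score of at least 0.4, and the runner-up class could reach at most 0.75 times that score, limits set after the scores were seen. CPM is UMIs of a gene over all UMIs of the cells summed. A gene was measured with at least 25 UMIs over both libraries, and called past 2-fold. CPM folds have exact conditional binomial intervals, shares Clopper-Pearson intervals and ratios of shares log-scale intervals, at 95%. A share of 0 allows 3 cells of the total. The code was tested on simulated data. No replicate exists, so treatment and library cannot be told apart.

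Members and lists were chosen with earlier results of these data known. The text names the 10 genes whatever their values, up to 3 measured genes each way of each other list, and the 3 genes most alike in detection for each member with at least 20 positive gate cells per library. Leading genes of clusters and cluster values were chosen after they were seen. Protein sequences were not used here, and a gene that the rule names is not reported here. Alternatives covered the gate, depth, filters, doublets, free RNA and scaling.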

Additional observations from a re-analysis of the deposited data

How the results depend on the processing

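No paired analysis was possible because each condition is 1 library. The count of genes at least 2-fold lower in summed CPM was 9 under every alternative but 2 gates on clusters given below. Outside those gates, the count in the share of cells was 8 or 9. Shares here count only genes with a positive cell in each library. This left out Pla2g2d where a positive cell needed at least 2 UMIs, and in gate cells of cluster 28. The remaining counts moved more. Positive gate cells as a share of all kept cells were at least 2-fold higher for 1 gene without cells holding Ly6c2 or Ccr2, and for 4 with no thinning. UMIs per positive cell were at least 2-fold lower for 2 genes with thinning to 4000 UMIs and for 2 with no thinning.

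Gates on clusters were added after the data were seen. The same counts over all measured genes were not taken for these gates. In all cells of cluster 28, 29.3% of measured genes were lower in share and 15.6% higher. In gate cells of cluster 28, 2 genes were at least 2-fold lower in CPM and 0 higher among all kept cells. In share 1 was lower, leaving out Pla2g2d, which had no positive tenotomy cell there. In gate cells of clusters 0, 13 and 28, 7 genes were lower in CPM, 7 in share and 1 in UMIs per positive cell. Cluster 13, led by Pclaf, Top2a and Stmn1, held 185 tenotomy and 6 sham cells. Gate cells outside dendritic-like and unnamed clusters gave 9 in CPM and 9 in share. Directions reversed only in cluster 28, among the alternatives run and among values past 2-fold in the gate. There the log2 fold in CPM was 0.59 for Cd209d, 0.12 for Cd209f, 0.58 for Cd209g and 0.33 for Lyve1. The log2 ratio of shares was 0.048 for Cd209d, 0.048 for Cd209f, 0.69 for Cd209g, 0.49 for Lyve1 and 0.079 for Folr2, and that among all kept cells was -2.08 for Mrc1 and -2.07 for Folr2. Of 714 single-gene values, 507 stayed within the counting interval, 196 moved beyond it and 11 reversed. The cause was not tested. With 316 sham gate cells, shares near 1% and levels near 1 UMI are limited by depth.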

Other observations

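Other lectins of macrophages stood on each side. Tenotomy gate cells had 5 of 19 measured lectin and scavenger receptor genes lower by 2-fold or more and 5 higher. Over all 12726 measured genes, 12.2% were lower and 7.80% higher, which is also the base for the lists that follow. The median log2 fold of these receptors was 0.18 against -0.03 over all measured genes. Cd209b, a marginal zone lectin in spleen, had 0.863 CPM with tenotomy and 34.1 CPM with sham, Mgl2, a galactose-type lectin, 59.0 and 536 CPM, and its relative Clec10a 76.2 and 296 CPM. The pattern receptors Clec4d (345 and 54.8 CPM), Clec4e (418 and 84.7 CPM) and Clec4n (241 and 51.2 CPM) were higher with tenotomy. Among 11 measured relatives of the 10 genes, 3 were lower: Cd209b, Cd209a (33.0 and 126 CPM) and Pla2r1 (0.575 and 2.30 CPM, from only 18 and 7 UMIs). A further 3 were higher, Havcr2, Mrc2 and Cd5l, which had 107 UMIs with tenotomy and 0 with sham. The median of these relatives was 0.59.

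Of 27 companion genes of resident macrophages, 4 were lower, 2 higher and 21 within 2-fold, with a median of -0.44. Hpgd, which degrades prostaglandins, had 33.5 CPM with tenotomy and 224 CPM with sham, the chemokine Ccl24 61.0 and 405 CPM, and the complement gene C4b 31.5 and 114 CPM. The chemokine Ccl8 (320 and 54.1 CPM) and the receptor Cx3cr1 (71.9 and 31.5 CPM) were higher. Of 18 genes of recruited monocytes and their progeny, 9 were higher, with a median of 1.08; Spp1 had 1578 and 10.5 CPM, Arg1 3628 and 3 UMIs, and Gpnmb 204 and 3.94 CPM. Of 15 ligand, cargo and upstream genes, 12 were within 2-fold, with a median of 0.08; Tsc22d3, a glucocorticoid-induced gene, had 77.0 and 315 CPM, Klf4 226 and 567 CPM, and Has2, a hyaluronan synthase, 10.5 and 3.28 CPM.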
